A study of Mus musculus with 2 samples.

Results

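Matrix metalloproteinases (MMPs), ADAM and ADAMTS proteases, their inhibitors and the genes of plasminogen activation were followed in mouse embryonic fibroblasts (MEFs) after knockdown of the lncRNA AK156230. The set was drawn up by gene name as 42 genes, and a gene was measured where a probe set of the array was annotated to it alone. This held for 40 of the 42 genes, out of 18193 named genes on the array, and Adamts2 and Mmp15 were not analysed here. Primary MEFs of C57BL/6 mice had been prepared from whole embryos at E13.5 and were used young, at passage 2. RNA of cells transfected with GapmeR Control, a scrambled, non-targeting LNA oligonucleotide, was hybridized to 1 array, and RNA of cells transfected with GapmeR AK156230, an LNA oligonucleotide that directs RNase H to AK156230, to 1 array, so the transfection itself was common to both. The arrays had been run to find mRNAs that differ after silencing of AK156230. How many embryos or cultures each RNA stood for was not given in the sources used here, and 1 GapmeR against AK156230 was used on the arrays. With 1 array per condition the differences below carry no replicate check and no p-value, and the number of arrays sets the limit of their precision. No probe set was annotated to AK156230 itself, so its knockdown was not read from these arrays. The 9160 probe sets without a listed gene were not searched for it.

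The proteases of this set cut proteins of the extracellular matrix and of the cell surface. MMPs are secreted or membrane-anchored zinc enzymes that are made as inactive precursors, opened by other proteases, and held in check by the tissue inhibitors of metalloproteinases (TIMPs) and by the membrane-anchored inhibitor RECK. ADAM proteases shed growth factors, cytokines and receptors from the cell surface, ADAMTS proteases are secreted enzymes that process procollagens and cleave large proteoglycans, and the plasminogen activators make plasmin, which degrades fibrin and can activate MMP precursors. Fibroblasts are a main source of many of these enzymes and inhibitors, and several of them belong to the secretome of senescent cells.

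The deposited values were MAS5 signals on a linear scale, with a median over 45037 probe sets of 54.80 for GapmeR Control and 50.95 for GapmeR AK156230, and a Pearson correlation of 0.970 on the log2 scale between the arrays. Log2 ratios (GapmeR AK156230 to GapmeR Control) used the deposited signals without an offset, and a gene was read from its probe set of highest mean log2 signal. In the sentences that follow a pair of signals is given with GapmeR Control first, and a signal is called dim where the brighter of the pair was under the median of its array. The median log2 ratio over all named genes was -0.074, and it was 0.032 after both arrays had been scaled to the same median, a shift of over 0.1. Of the named genes 289 were higher and 700 lower by 2-fold or more, so 70.8% of them were lower, against 60.0% after that scaling (388 higher and 583 lower). The SD of the log2 ratio per probe set was 0.276, a spread between probe sets of the same gene and not between cultures. It is the SD of the difference between the 2 brightest probe sets of a gene, divided by the square root of 2. Only probe sets whose brighter signal reached the median of its array were used, in 5112 genes. Detection calls were not used here, and signals near or under the median of an array may be background.

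The members of the set were mostly lower with GapmeR AK156230. Of the 40 genes, 9 were lower by 2-fold or more, while 3.85% of all named genes were, and 0 were higher by 2-fold or more, against 1.59% of all named genes. The genes lower by 2-fold or more were the MMP genes Mmp13, Mmp19, Mmp11 and Mmp2, the inhibitor gene Reck, the ADAM genes Adam23 and Adam12, Adamts12, and Plat, which encodes tissue plasminogen activator. Log2 ratios lay below 0 in 38 of the 40 genes, and in 58.8% of all named genes. After both arrays had been scaled to the same median it was 34 of 40, against 46.3% of all named genes. The median log2 ratio of the set was -0.56. The 31 genes within 2-fold included 9 that were lower by 1.5-fold or more, which made 18 of the 40 genes at that threshold, against 9.69% of all named genes. At 3-fold it was 6 of the 40 genes, against 1.45%. The brighter of the 2 signals was at or above the median of its array in 35 of the 40 genes, and all 9 genes past 2-fold were among these, while 4.92% of all named genes at that signal were lower and 1.9% higher by 2-fold or more. Log2 ratios were below 0 in 34 of the 35, against 56.8% of all such genes. A lower gene can meet this minimum through its control signal alone. Mmp13 and Mmp19 did so, with 41.29 and 16.99 after knockdown, so the minimum is no check on their lower signals. The remaining 5 genes were Mmp9, Mmp8, Mmp12, Adamts15 and Adamts20, whose ratios are those of dim probe sets.

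**Figure D1:**
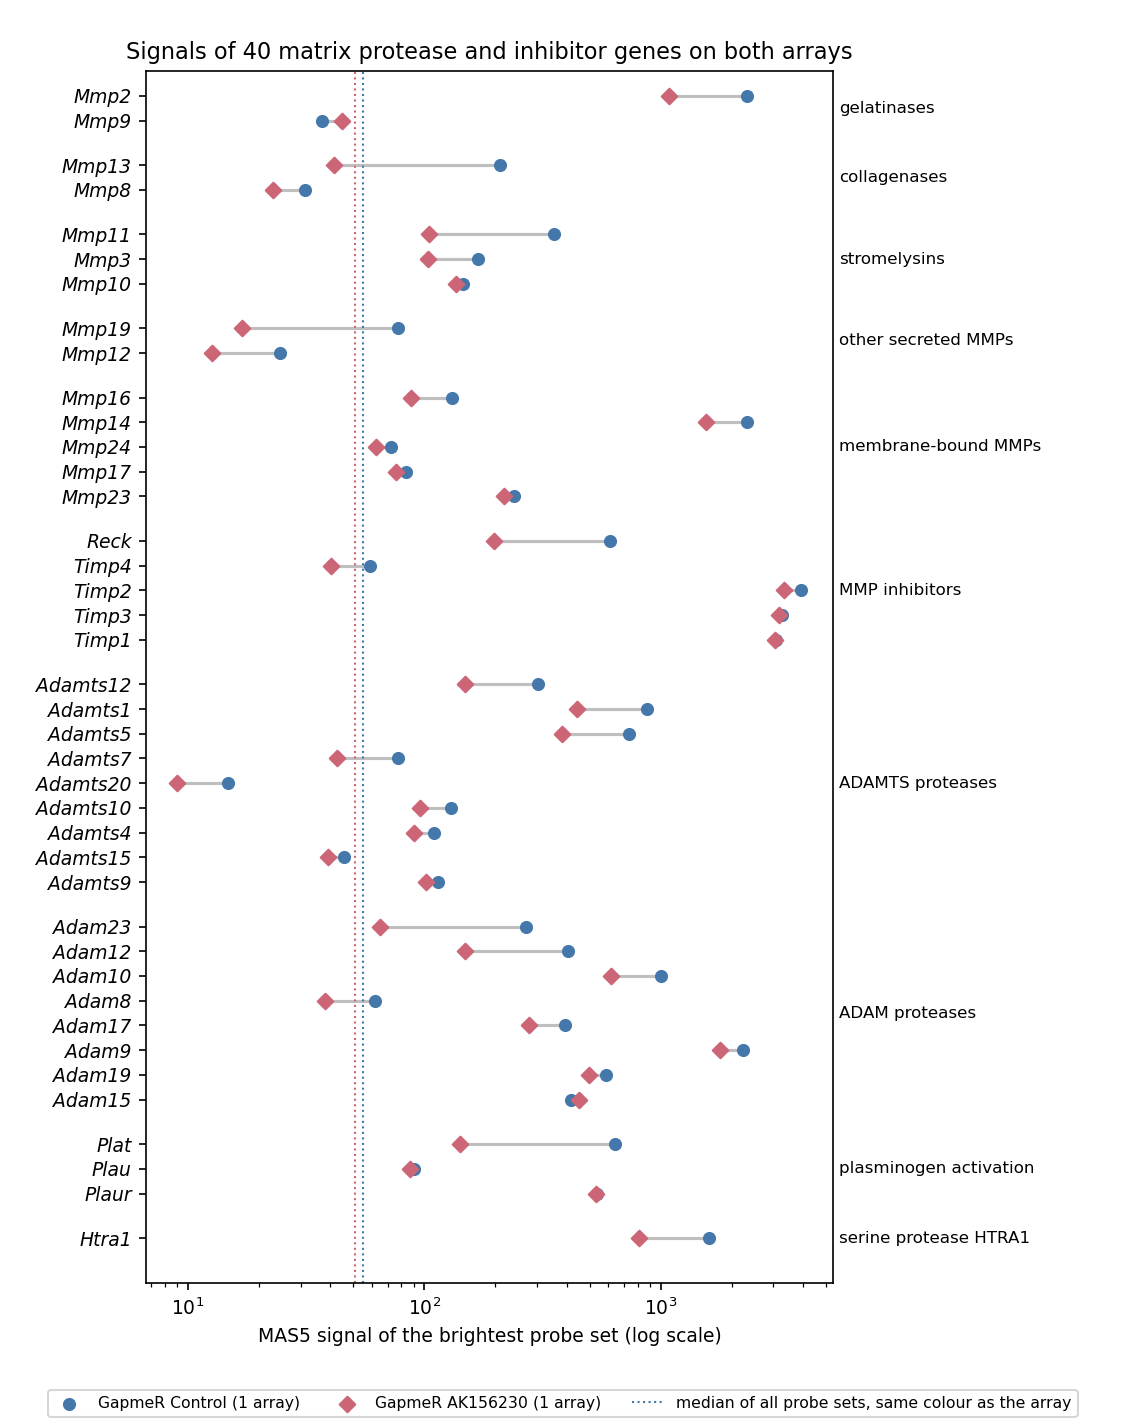
MAS5 signal (log scale) of the brightest probe set of each of the 40 genes with GapmeR Control (circles) and GapmeR AK156230 (diamonds), 1 array each, ordered by role and by log2 ratio, with a dotted line at the median signal of each array. The knockdown signal lies left of the control signal in 38 genes, with the widest gaps in Mmp13 (209.66 and 41.29) and Mmp19 (77.61 and 16.99), and the signals of Timp1 (3071.87 and 3050.56) and Timp3 (3272.95 and 3180.10) nearly coincide.

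Of the gelatinases, which cleave denatured collagen and the collagen of basement membranes, Mmp2 was lower and Mmp9 was dim. The signal of Mmp2, which lies at chr8:92827290-92853421 (GRCm38.p6, as are all positions here), was 2327.82 with GapmeR Control against 1082.60 after knockdown, 2.15-fold lower. Its second probe set had 1351.07 and 560.28 and was 2.41-fold lower, so both bright probe sets of the gene went the same way to a like extent, although the first was at a log2 ratio of -0.999 after both arrays had been scaled to the same median. Mmp9 had 36.72 and 44.74, both under the median of their array, and a second probe set 17.92 and 26.14. It was 1 of the 2 genes of the set with a log2 ratio above 0, at 0.28.

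Of the collagenases, which cut intact fibrillar collagen, Mmp13 had the lowest log2 ratio of the whole set. Mmp13, the collagenase of cartilage and bone and of fibroblasts in mice, lies at chr9:7272514-7283333, and gave 209.66 with GapmeR Control against 41.29 after knockdown, 5.08-fold lower. The lower signal was under the median of its array. Mmp8, known as the collagenase of neutrophils, was dim on both arrays (31.15 and 22.85, log2 ratio -0.45). So were 5 of the 7 neutrophil markers measured, with GapmeR Control signals from 17.49 to 41.09. Camp and Ngp were above the median of that array, at 60.55 and 74.73. Of all 18193 named genes 12319 were not dim.

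The stromelysins, of which stromelysins 1 and 2 cleave proteoglycans, laminin and fibronectin and can activate other MMPs, did not go together. Mmp11, stromelysin 3, gave 352.29 with GapmeR Control against 104.26 after knockdown and was 3.38-fold lower. It lies at chr10:75923221-75932502. Mmp3, stromelysin 1, had 168.93 and 103.53, a log2 ratio of -0.71. Mmp10, stromelysin 2, had 146.34 and 135.56, a log2 ratio of -0.11, which is within the disagreement between probe sets. Of the other secreted MMPs Mmp19 was 4.57-fold lower (77.61 and 16.99), with a dimmer second probe set at 39.89 and 24.66 and a log2 ratio of -0.69. Mmp12, the elastase of macrophages, was dim on both arrays (24.62 and 12.61), with a log2 ratio of -0.97. Mmp19 lies at chr10:128790910-128800827.

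Several of these secreted MMPs lie next to each other on chromosome 9. Between 7272514 and 7699585, a stretch of 427 kb, 9 measured MMP genes lie in the order Mmp13, Mmp12, Mmp1b, Mmp3, Mmp1a, Mmp10, Mmp8, Mmp20 and Mmp7, of which 5 belong to the set and Mmp1b, Mmp1a, Mmp20 and Mmp7 to the rest of the family. Log2 ratios were below 0 in all 9, against 58.8% of all named genes, with the signals as deposited. After both arrays had been scaled to the same median, Mmp10 was at -0.0053 and 46.3% of all named genes were below 0. Mmp20, at -0.061 before it, was nearer to 0 than the shift of over 0.1 that this scaling made. In the order along the chromosome the deposited signals gave log2 ratios of -2.34, -0.97, -0.52, -0.71, -0.35, -0.11, -0.45, -0.061 and -0.12. The ratios thus did not rise steadily from Mmp13 to Mmp7. Mmp13, Mmp3 and Mmp10 were bright on at least 1 array and Mmp7 was 91.26 and 83.93, while Mmp12, Mmp1b, Mmp1a, Mmp8 and Mmp20 were dim, with signals under 32 on both arrays. The gene with the lowest ratio thus had neighbours within the same cluster that were within 2-fold.

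Many MMP promoters carry an AP-1 element close to the start site, through which growth factors and cytokines are known to act, and 4 genes of the cluster are shown here because they share these letters while their log2 ratios differ. Each line gives the 130 bases before a RefSeq start on the plus strand of GRCm38.p6, at chr9:7272384-7272513 for Mmp13, chr9:7347244-7347373 for the second start of Mmp12, chr9:7445692-7445821 for Mmp3 and chr9:7502212-7502341 for Mmp10. The window at the first start of Mmp12, at 7344397, held no AP-1 match and is not printed. Capitals mark matches to the AP-1 letters TGACTCA or their reverse complement TGAGTCA and, in Mmp13, to the RUNX letters AACCACA (reverse complement TGTGGTT).
Mmp13: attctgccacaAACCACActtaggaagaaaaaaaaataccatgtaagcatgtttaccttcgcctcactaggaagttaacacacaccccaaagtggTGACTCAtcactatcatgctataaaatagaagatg
Mmp12: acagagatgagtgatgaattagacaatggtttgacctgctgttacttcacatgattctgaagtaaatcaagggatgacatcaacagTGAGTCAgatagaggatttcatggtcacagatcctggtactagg
Mmp3: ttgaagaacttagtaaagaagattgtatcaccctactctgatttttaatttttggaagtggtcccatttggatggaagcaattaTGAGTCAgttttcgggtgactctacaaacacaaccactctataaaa
Mmp10: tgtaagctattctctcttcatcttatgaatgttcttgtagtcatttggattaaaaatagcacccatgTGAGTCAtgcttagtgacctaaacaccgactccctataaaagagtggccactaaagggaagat

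The AP-1 match began at position -35 from the start in Mmp13, at -44 in Mmp12, at -46 in Mmp3 and at -63 in Mmp10, and the log2 ratios of these genes were -2.34, -0.97, -0.71 and -0.11. RefSeq windows from 250 bases before to 50 bases after a start were in hand for 26 of the 40 genes (30 windows). On either strand 6 of the 30 windows held the AP-1 letters, those of Plaur and Adam19 besides the 4 shown, against 5.2% of 32851 windows of all genes. The match began at -69 in Plaur and at -131 in Adam19, whose log2 ratios were -0.024 and -0.24. The ratio of Mmp12 is that of a dim probe set, and a relation between position and ratio was not tested. Of the genes past 2-fold with a window Mmp13 was the one that held the AP-1 letters. How many genes past 2-fold had a window was not counted, and genes without one were not searched. The RUNX letters were found in 1 of the 30 windows, that of Mmp13 (at -119), against 5.27% of all windows. The motifs do not overlap, and a match is a match of letters, not a measured site.

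The membrane-bound MMPs were all within 2-fold. Mmp14, which encodes MT1-MMP, a collagenase of the cell surface that activates the precursor of MMP2, had 2319.69 with GapmeR Control and 1563.04 with GapmeR AK156230, a log2 ratio of -0.57, and its further probe sets had -0.50 and -0.65. Mmp16, also an activator of the MMP2 precursor, had 131.48 and 87.93, a log2 ratio of -0.58, and of its 3 further probe sets 1 was 2.04-fold lower (77.17 and 37.85). Mmp23 had 239.33 and 217.46. Mmp17 and Mmp24 had log2 ratios of -0.15 and -0.21, and one of the 3 probe sets of Mmp24 was at 0.0060.

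The inhibitors differed from each other: TIMP genes were within 2-fold and Reck was lower. Timp1 had 3071.87 with GapmeR Control and 3050.56 with GapmeR AK156230 (log2 ratio -0.010), and Timp3, whose product is bound to the matrix and inhibits ADAM and ADAMTS proteases as well, had 3272.95 and 3180.10 (log2 ratio -0.042). Both log2 ratios were close to that of the median gene, and both were above 0 after both arrays had been scaled to the same median, after quantile normalization and after a loess correction. Timp2, an inhibitor that also takes part in the activation of MMP2 by MT1-MMP, had 3937.69 and 3339.68 at the probe set that stood for it (log2 ratio -0.24), but 4 of its 5 further probe sets lay lower, from -0.84 to -0.62, among them one with 4298.44 and 2790.07. Only the dimmest (12.89 and 18.84) was above 0. Timp4 was near the median of the array (58.88 and 40.33, log2 ratio -0.55), and a dimmer probe set was 2.68-fold lower (33.79 and 12.61). Reck, which inhibits MMP2, MMP9 and MT1-MMP at the cell surface, was 3.08-fold lower, with 608.85 and 197.61; it has 1 probe set and lies at chr4:43875521-43944806.

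**Figure D2:**
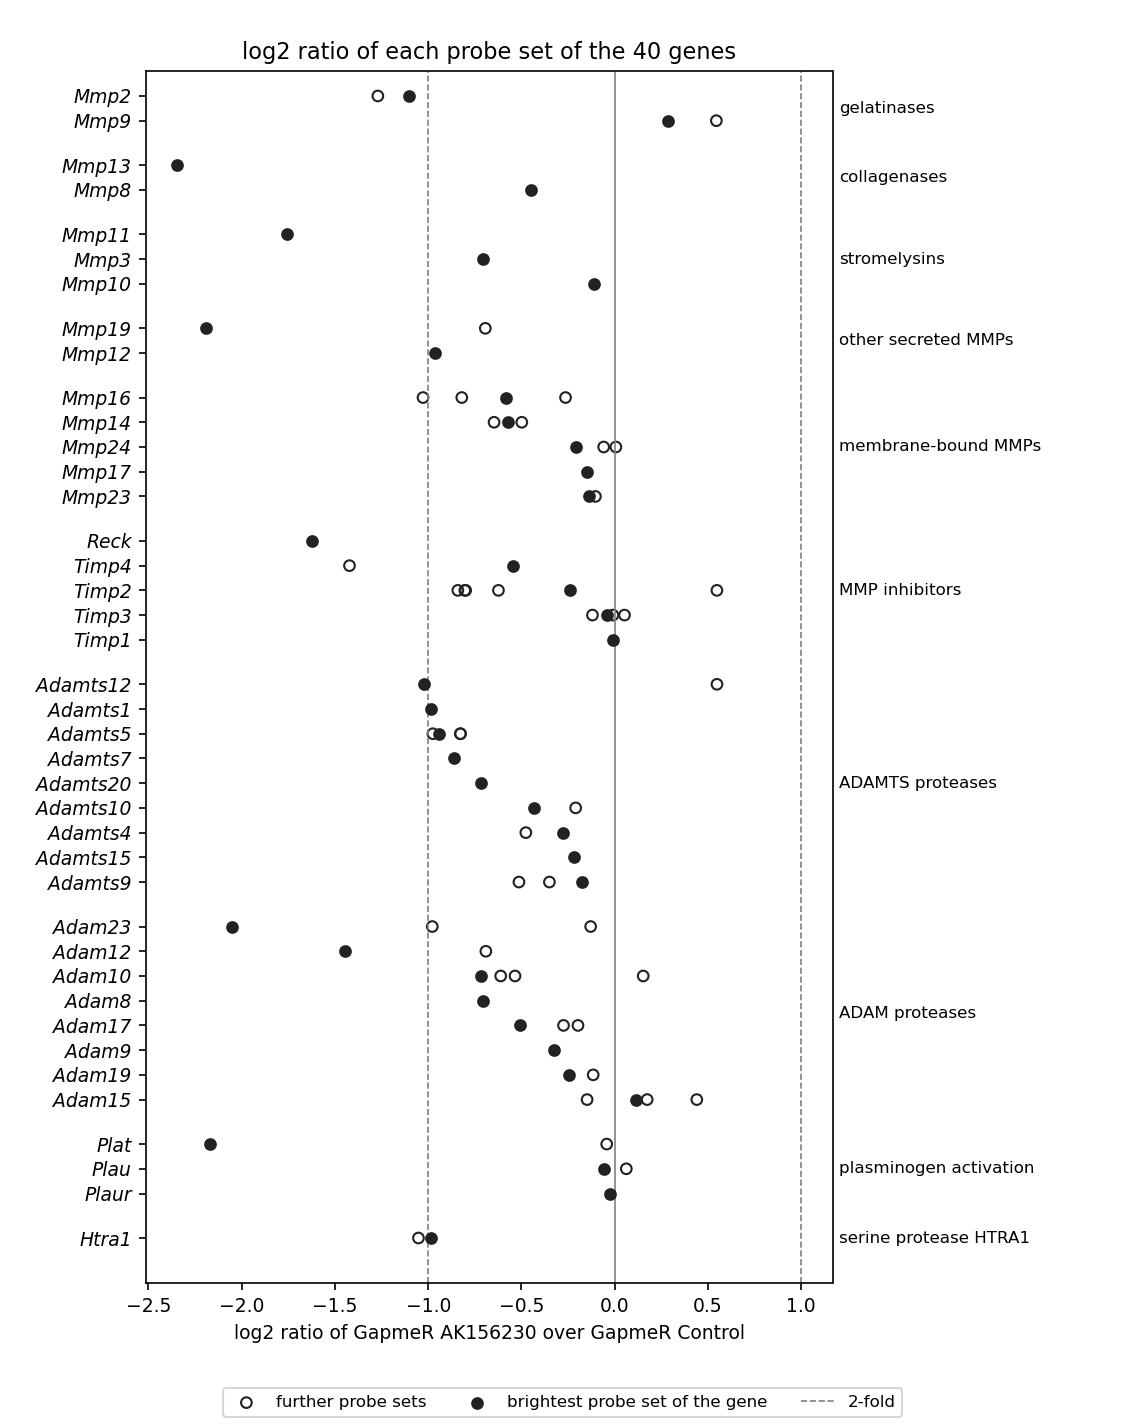
Ratio of knockdown to control signal (log2) at the 83 probe sets of the 40 genes, ordered by role. Filled points are the probe sets that stood for their gene, and dashed lines mark 2-fold; those of Adamts5 lie close together, from -0.97 to -0.83, while those of Plat (-2.17 and -0.043) and Adam23 (-2.05, -0.98 and -0.13) are far apart.

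All 9 ADAMTS genes measured had log2 ratios below 0, from -1.02 to -0.18, against 58.8% of all named genes. Of them 1 was lower by 2-fold or more, against 3.85%. The hyalectanases, which cleave aggrecan and versican, included the pair Adamts1 and Adamts5, neighbours on chromosome 16 (chr16:85793827-85803113 and chr16:85858157-85901125). Adamts1 had 872.97 with GapmeR Control and 440.56 with GapmeR AK156230, a log2 ratio of -0.99. Adamts5, the main aggrecanase of mouse cartilage, had 736.31 and 383.54, a log2 ratio of -0.94, and its 3 further probe sets had log2 ratios from -0.97 to -0.83. Each was thus just inside 2-fold. Adamts12, a protease of cartilage oligomeric matrix protein, was just past it, with 301.25 and 148.33, 2.03-fold lower; it lies at chr15:11064773-11349232, and its other probe set was very dim (7.23 and 10.57). It was within 2-fold after scaling to the same median, after quantile normalization, with an offset of 24.3 and with the mean of both probe sets. Adamts7, which also cleaves that protein, had 77.56 and 42.67, a log2 ratio of -0.86. Adamts4, Adamts9, Adamts10, Adamts15 and the dim Adamts20 had log2 ratios from -0.72 to -0.18.

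Of the 8 ADAM genes 2 were lower by 2-fold or more, against 3.85% of all named genes. Adam23, which lacks the catalytic site of the proteases and binds integrins, had 268.73 with GapmeR Control against 64.88 after knockdown, 4.14-fold lower; it lies at chr1:63445717-63596111. A second bright probe set was 1.97-fold lower (139.29 and 70.70) and a dim one had 25.45 and 23.27. Adam12, a protease of mesenchymal cells that sheds heparin-binding EGF-like growth factor and cleaves IGF-binding proteins, was 2.73-fold lower with 403.63 and 147.90, and its second probe set was 1.61-fold lower; it lies at chr7:133883199-134225097. The general sheddases were closer to the control. Adam10, the sheddase of Notch receptors and cadherins, had 1007.32 and 613.89 (log2 ratio -0.71, with -0.61, -0.53 and 0.15 at its further probe sets). Adam17, which releases TNF and EGF-receptor ligands, had 394.40 and 277.02 (log2 ratio -0.51). Adam9 had 2241.37 and 1787.65 (log2 ratio -0.33) and Adam19 had 586.91 and 495.46 (log2 ratio -0.24). Adam15 had 416.59 and 451.60 and was the other gene of the set above 0, at 0.12. Its 3 further probe sets had 0.17, 0.44 and -0.15, and the gene was read at -0.15 once probe sets ending in _x_at or _s_at, which can hybridize to related transcripts, had been left out. Adam8 was near the median of the array, at 61.76 and 37.81 (log2 ratio -0.71).

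Among the genes of plasminogen activation Plat stood apart. It had 639.33 with GapmeR Control against 142.03 after knockdown, 4.50-fold lower, while a second, dim probe set had 41.80 and 40.57; the gene lies at chr8:22757722-22782848. Plau, which encodes urokinase, had 90.71 and 87.28 (log2 ratio -0.056), and Plaur, which encodes its receptor, had 539.67 and 530.73 (log2 ratio -0.024). Both of these were above 0 after both arrays had been scaled to the same median and after quantile normalization. Htra1, a secreted serine protease that cleaves fibronectin and proteoglycans, had 1608.07 and 812.08, a log2 ratio of -0.99, and its second probe set had 1115.71 and 538.01 and was 2.07-fold lower.

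Taking all 83 probe sets of the 40 genes, 72 had log2 ratios below 0, against 57.4% of the 34945 probe sets of named genes, 13 were lower by 2-fold or more, against 3.68%, and 0 were higher, against 1.48%. Of the 43 probe sets that did not stand for their gene, 34 were below 0, against 55.9% of all such probe sets, and 4 were lower by 2-fold or more, against 3.49%, those of Mmp2, Mmp16, Timp4 and Htra1. Of the 29 whose brighter signal reached the median of its array, 25 were below 0, against 52% of all such probe sets. In 16 of the 24 genes with several probe sets all of them were below 0, but the like share over all named genes was not counted. Mmp13, Mmp11 and Reck rested on 1 probe set each.

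The genes of the set differ widely in genomic span, from 3.885 kb in Mmp23 to 341.9 kb in Adam12, and over the array as a whole the share of lower genes was greater among genes of wide span. Counting genes whose brighter signal reached the median of its array, 2 of 8 genes of the set under 10 kb were lower by 2-fold or more, against 2.35% of all such genes, 1 of 7 from 10 to 20 kb, against 2.19%, and 2 of 5 from 20 to 40 kb, against 2.76%. From 40 to 80 kb it was 1 of 8, against 5.12%, from 80 to 160 kb 1 of 3, against 8.3%, and over 160 kb 2 of 4, against 25.4%. Of the 9 genes past 2-fold, Adam12 and Adamts12 are over 160 kb, Adam23 spans 150.4 kb and Reck 69.3 kb, while Plat (25.1 kb), Mmp2 (26.1 kb), Mmp13 (10.8 kb), Mmp19 (9.92 kb) and Mmp11 (9.28 kb) are under 40 kb. Under 40 kb these were 5 of the 20 genes of the set at or above the median signal, beside the 2.43% of all such genes, and from 40 kb up they were 4 of 15, beside 10.1%. Of the 5 under 40 kb, Mmp13 and Mmp19 reached the median signal through their control signal alone, with 41.29 and 16.99 after knockdown. The median span was 26.1 kb for the 9 genes past 2-fold and 23.3 kb for the other 31, which include 5 dim genes. For all named genes at that signal it was 81.0 kb in those lower by 2-fold or more and 22.5 kb in all. Log2 ratio and span had a Spearman correlation of -0.24 over the 40 genes and of -0.19 over all named genes at that signal. Both are given as a description since all points come from the same pair of arrays. The part of genomic span in the ratios of the 9 genes past 2-fold was not tested.

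**Figure D3:**
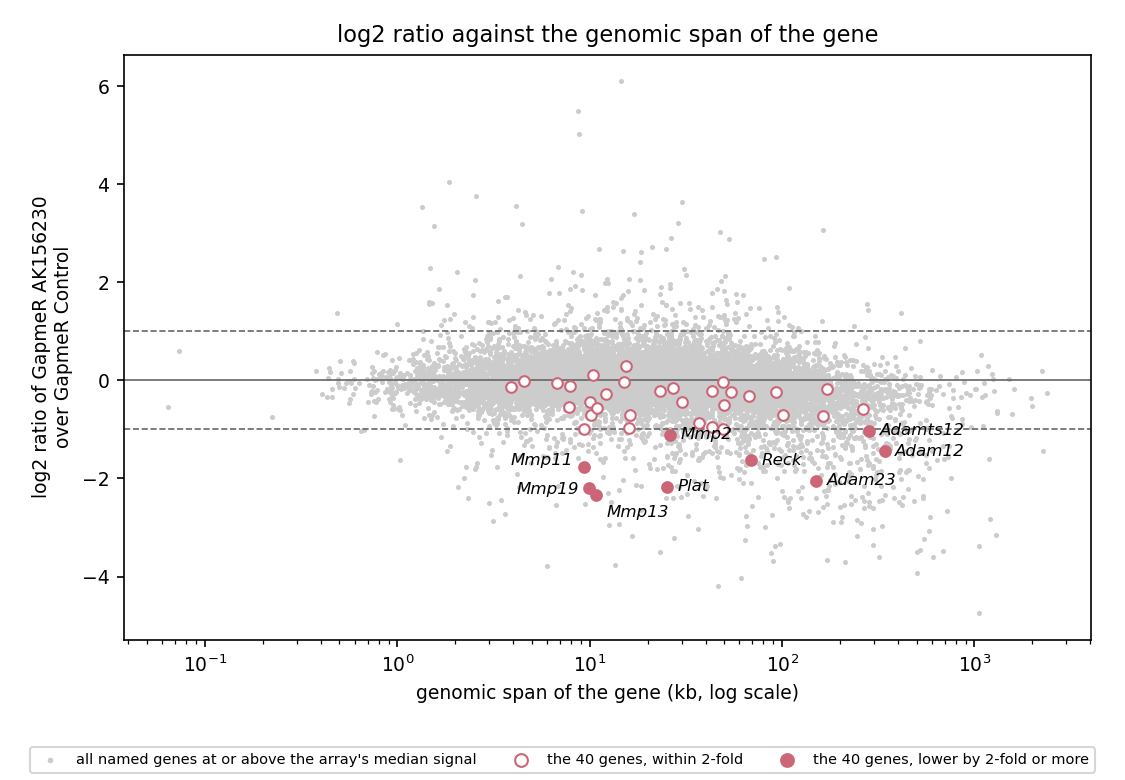
Ratio of knockdown to control signal (log2) against genomic span (kb, log scale) for named genes that reached the median signal on an array (grey) and for the 40 genes (open, within 2-fold; filled, lower by 2-fold or more), with dashed lines at 2-fold. Mmp11, Mmp19 and Mmp13 lie at about the same short span as genes within 2-fold, and Adam12 (341.9 kb) and Adamts12 (284.5 kb) lie where many other genes of the array are lower.

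Markers of fibroblasts, the cells that make many of these enzymes, were mostly lower as well. Of 14 fibroblast markers 7 were lower and 0 higher by 2-fold or more, against 3.85% and 1.59% of all named genes. Their median log2 ratio was -1.02, with 12 below 0 and 2 above. The transcription factor gene Prrx1 was 5.90-fold lower (1280.15 and 216.96) and Fap, a serine protease of activated fibroblasts, 5.17-fold lower (203.93 and 39.42). Pdgfra, a growth factor receptor of mesenchymal cells, was 3.67-fold lower (1038.96 and 283.31). Vim (6598.43 and 6211.66), S100a4 and Dcn had log2 ratios between -0.087 and 0.060, and Twist1 had the highest of the 14, at 0.29 (602.13 and 734.26). In RNA of whole cultures fewer cells of a type and less RNA per cell cannot be told apart. Of 7 markers of chondrocytes and osteoblasts, cells known for Mmp13 and Adamts5, all had log2 ratios below 0, against 58.8% of all named genes. Col2a1, the collagen of cartilage, was 4.52-fold lower (270.73 and 59.88). Acan, Col10a1, Sp7 and Ibsp were under the median of the array on both, at 17.11 to 45.95 with GapmeR Control. The 10 macrophage markers did not go together, with 4 log2 ratios above 0 and 6 below. Cd68 and Cd14 were higher by 2.54-fold and 2.37-fold. Lyz2, the brightest of them, had 724.68 and 526.64 (log2 ratio -0.46), and Csf1r and Adgre1 were at -0.30 and -0.56. Ptprc was dim at 30.89 and 25.85, and Mrc1, also dim, was 2.61-fold lower. The 7 neutrophil markers had log2 ratios from -0.67 to 0.23. Of the 8 keratinocyte and epithelial markers Krt18, Krt19 and Cldn4 were higher by 2.35-fold, 2.09-fold and 2.91-fold, while Epcam, a marker of epithelia in general, had 147.65 and 103.10 (log2 ratio -0.52), Krt8 had 77.11 and 81.09 and Cdh1 was dim, and the defining basal keratins Krt5 and Krt14 were under 37 on both arrays. Of 7 endothelial markers Kdr was 2.04-fold higher (44.54 and 90.91) and Cdh5 and Pecam1 were under 34 on both. The part of these cell types in the ratios of the protease genes was not tested.

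Genes of the same families outside the set, and genes whose products act with them, were read in the same way. The shares to set beside the counts here and in the next paragraph are 3.85% of all named genes lower and 1.59% higher by 2-fold or more. Of 14 further MMP, ADAM and ADAMTS genes 0 were lower and 0 were higher by 2-fold or more, with a median log2 ratio of -0.091, but 8 of the 14 were dim on both arrays. Adam22, a catalytically inactive relative of Adam23 and a genomic neighbour of AK156230, had 102.42 and 106.13. Of 30 activators, inhibitors and receptors 4 were lower and 1 was higher by 2-fold or more, with a median of -0.14. Adamtsl3, an ADAMTS-like matrix protein without protease activity, was 4.90-fold lower (138.11 and 28.20). Tspan5, a tetraspanin that guides ADAM10 to the cell surface, was 2.20-fold lower (245.77 and 111.75), and Pcsk5, a proprotein convertase, 2.11-fold lower (254.42 and 120.67); these genes span 279.1, 162.6 and 405.4 kb. Furin, a convertase that activates MT1-MMP, ADAM and ADAMTS precursors, had 322.72 and 427.14, and the MMP inducer Bsg had 1358.46 and 1697.79, log2 ratios of 0.40 and 0.32. The plasminogen receptor genes Anxa2 (5256.02 and 5147.33) and S100a10 (2939.45 and 2892.47) were within 2-fold, at log2 ratios of -0.030 and -0.023. The dim Serpinb2, an inhibitor of urokinase, had 10.94 and 46.67.

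Of 21 other proteases of the cell surface and the pericellular space 2 were lower and 2 were higher by 2-fold or more, with a median of -0.16. Mme, the membrane endopeptidase neprilysin, was 6.66-fold lower (105.77 and 15.87) and Htra3, a relative of Htra1, 2.89-fold lower (163.62 and 56.68), whereas the serine protease genes Klk8 and St14, both known from epidermis, were 4.17-fold (208.13 and 868.79) and 3.44-fold higher (27.18 and 93.44). The cathepsin genes Ctsb (3821.95 and 3511.60) and Ctsl (4282.08 and 3720.74) were within 2-fold. Of 23 genes for substrates of these proteases 4 were lower and 1 was higher by 2-fold or more, with a median log2 ratio of -0.42. Igfbp3 (423.99 and 73.90) was 5.74-fold lower, Col2a1 4.52-fold, Igfbp5 (2303.29 and 774.62) 2.97-fold and Col3a1 (4711.84 and 1599.46) 2.95-fold lower. Versican, the gene Vcan, had 1252.67 and 643.80 (log2 ratio -0.96), beside the ratios of its proteases Adamts1 and Adamts5 at -0.99 and -0.94. Hbegf, a growth factor shed by ADAM proteases, was 2.58-fold higher (343.19 and 886.44), while Adam12, Adam10 and Adam17 were at log2 ratios of -1.45, -0.71 and -0.51.

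**Figure D4:**
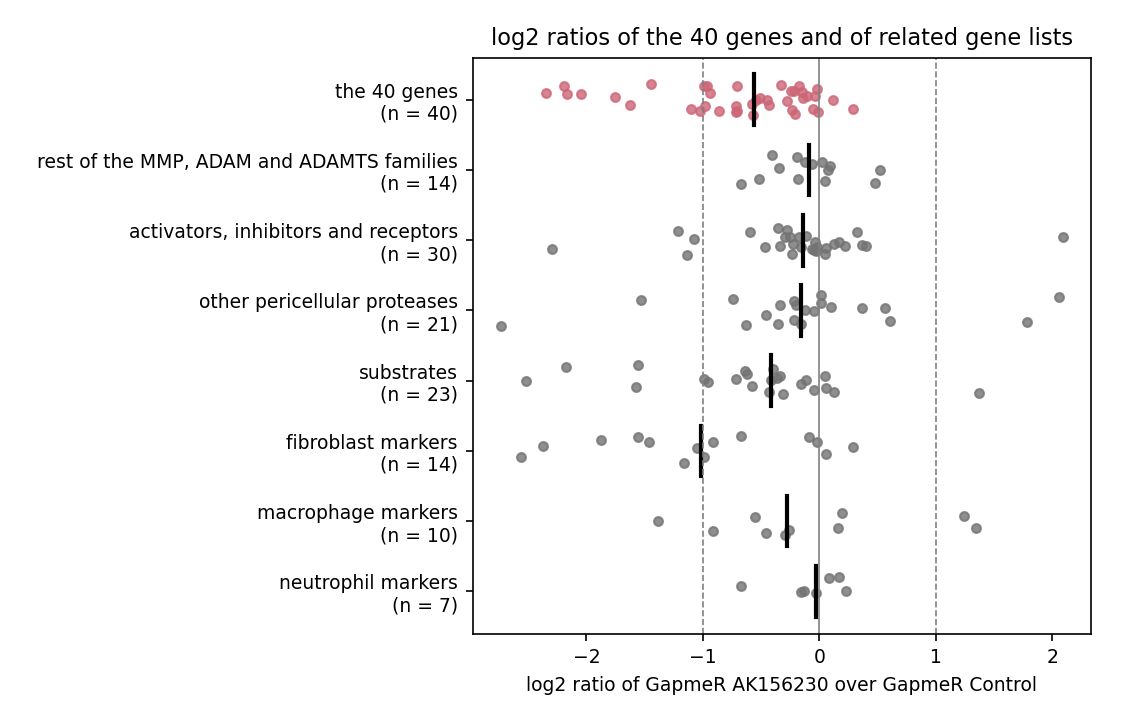
Ratio of knockdown to control signal (log2) for the 40 genes and for each measured gene of related lists, with a black bar at each median and dashed lines at 2-fold; points are spread vertically for visibility. The medians lie at -0.56 for the 40 genes, at -0.091 for 14 further genes of the families and at -1.02 for 14 fibroblast markers.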

How the data were processed

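The deposited values are intensity signals per probe set of Affymetrix arrays, which the authors computed by MAS5 (per the submitters' processing notes); its version and scale factor were not given. A porcine array is named in the study's methods, but the probe set identifiers matched the mouse annotation, which was used. Of 45037 probe sets, 34945 had 1 gene symbol, 932 several and 9160 none listed; 34741 symbols were read through the Entrez ID, and positions and spans came from RefSeq genes of GRCm38.p6 (99.7% of 18193 genes). The methods' test (SAM) needs groups of arrays, so genes were counted at a ratio of 2 or more, without a test. The members, lists and motifs were chosen with earlier results of these data known. Described in full were members past 2-fold, members in the top 25% of signals on an array and the brightest of each other role group, and from each list up to 5 genes past 2-fold at or above the array's median; genes within 2-fold or dimmer that are named from the lists were chosen after their values were seen. Alternatives were median scaling, quantile normalization, loess (span 0.3), an offset of 24.3, signal minimums, other folds and other choices of probe set. Counting and motif search were tested on simulated data. Python 3.11.15, numpy 2.4.6, pandas 2.3.3, statsmodels 0.14.6 and matplotlib 3.10.9 were used.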

Additional observations from a re-analysis of the deposited data

How the results depend on the processing

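Of the 40 genes, 0 were higher by 2-fold under any of the 8 alternatives at that threshold, and the number lower by 2-fold or more was 7 with both arrays scaled to the same median (Mmp2, at -0.999, and Adamts12 dropped out), 8 after quantile normalization or with 24.3 added to every signal (without Adamts12), and 9 after loess, without probe sets ending in _x_at or _s_at and with either signal minimum. With the mean of all probe sets it was also 9, with Htra1 (-1.02) in place of Adamts12 (-0.24). Of all named genes 3.20% were lower by 2-fold or more after median scaling, 3.39% after quantile normalization and 2.61% with the offset. The share was 3.54% after loess, 3.79% without probe sets ending in _x_at or _s_at and 2.94% with the mean. Among named genes that reached the median signal it was 4.92%. Under the scaling, offset and probe set alternatives 158 to 388 named genes were higher by 2-fold or more. Mmp13, Mmp19, Mmp11, Reck, Plat, Adam23 and Adam12 were past 2-fold under every scaling, offset and probe set alternative, but with the mean of all probe sets Plat (-1.11), Adam23 (-1.05) and Adam12 (-1.07) were close to it, and Mmp19 was at -1.30 with the offset. At a threshold of 1.5-fold 18 were lower and at 3-fold 6, against 9.69% and 1.45% of all named genes. The median log2 ratio of -0.56 was -0.45 with both arrays scaled to the same median and with the mean of all probe sets, and -0.38 with the offset. No paired analysis was possible because each group has 1 array.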
